A study of Mus musculus with 10 samples.

Results

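RNA recovered with an antibody against IMP2 from wild-type mouse skeletal muscle was compared with total RNA of wild-type muscle. The members are the 2 wild-type IP libraries and the 3 wild-type total RNA libraries, chosen by their labels, which makes 5 of the 10 libraries of the series. Every gene row of the 5 count files was used, 43629 genes in all, and 14399 of them passed the filter on low counts and were tested. The other 5 libraries, 2 IP and 3 total RNA libraries labelled IMP2 null and called KO here, went through the same protocol and are compared with the wild-type libraries at the end.

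All mice were C57BL/6 males of 6 weeks that had spent 2 weeks on a high-fat diet, and both genotypes shared this diet. The wild-type (WT) groups carried no labelled allele. The null genotype is called a knockout restricted to muscle in the study's design text, so that IMP2 in other cells of the tissue may be kept. The antibody was made in the submitters' laboratory, and the promoter that drove the deletion, a control IP with another antibody and the number of animals per library are not given in the sources used here. Nothing in the labels says that libraries of 1 group came from separate animals, so the p-values measure the spread between these libraries, which may be technical.

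IMP2, encoded by Igf2bp2, is one of the 3 insulin-like growth factor 2 mRNA-binding proteins, a family that holds mRNAs in cytoplasmic particles and alters their localization, stability and translation. IGF2 mRNA gave the family its name, and in muscle IMP2 has been linked to translation of growth and metabolic mRNAs. An RNA immunoprecipitation recovers RNA bound to the antibody's target together with whatever RNA adheres to the beads, so IP over total RNA holds both.

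The WT total libraries held 14809788, 13934240 and 12299030 gene counts and the WT IP libraries 2159115 and 2547124, so that 3 counts correspond to 0.20 to 0.24 CPM (counts scaled to the size of the library, here before TMM scaling) in total RNA and to 1.39 and 1.18 CPM in the IP. Reads that mapped to several places, which were left uncounted, made up 26.1% to 36.9% of the total RNA reads and 41.9% and 43.3% of the IP reads. Igf2bp2 itself was at 35, 37 and 48 counts in WT total RNA, 28 and 4 in the WT IP, 21, 19 and 21 in total RNA labelled KO and 9 and 25 in IP labelled KO. The deleted part of the gene is not given, so counts over the whole gene do not check the labels. Acta1, Myh4 and Ckm, defining genes of skeletal muscle, were among the most counted genes of all 3 WT total libraries. Some WT libraries stood apart: total library 3 had 4579 CPM of the nuclear RNA Neat1 against 1212 and 1525 in libraries 1 and 2, total library 2 had 225 CPM of the brown fat gene Ucp1 against 0.143 and 3.70, and IP library 2 had 205 CPM of the insulin gene Ins2 against 24.0 in IP library 1 and at most 0.772 in total RNA. Insulin is not made by muscle, and 1 total library labelled KO held 1397 CPM of Ins2.

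On the TMM scale genes went both ways in about equal number. Tested with edgeR's quasi-likelihood test at a Benjamini-Hochberg adjusted p of 0.05, 2534 genes (17.6% of those tested) were higher in the WT IP and 2791 (19.4%) were lower. Of the higher genes 1737 differed by more than 1 on the log2 scale and 102 by more than 3, and of the lower genes 2094 and 406 did. The median over all tested genes was -0.05 on the log2 scale, with 6952 values above 0 and 7447 below. TMM scaling places the bulk of genes near 0, so this balance does not measure how much RNA the IP recovered. With library size alone as the scale 2592 genes were higher and 2277 lower. Without IP library 2 the higher genes numbered 1666, and without IP library 1 1806. A test against a fold of 2, in place of any difference, kept 504 higher and 761 lower genes. The genes with the smallest p values on the higher side were Dusp23, a small protein phosphatase, R3hdm4, the start codon factor Eif1, the chemokine Cxcl14 and the RNA-binding protein Larp4b, with log2 differences between 2.35 and 2.86. On the lower side they included the annexin Anxa11, Pstpip2, the potassium channel Kcnj11 and the mitochondrial phosphatase Pptc7, between -4.83 and -3.72. In every one of these 9 genes the 2 IP values lay outside the range of the 3 total RNA values, which follows largely from their choice by p in the same libraries.

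**Figure D1:**
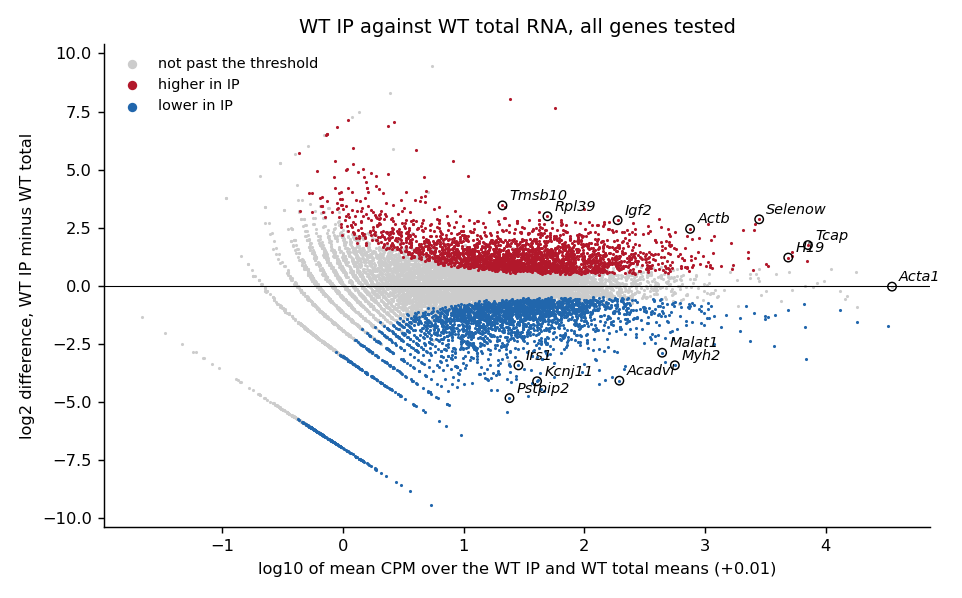
Each point is 1 of the 14399 genes tested. The horizontal axis is the log10 of its mean CPM over the WT IP and WT total means with 0.01 added, the vertical axis its log2 difference between WT IP and WT total RNA, and colour marks genes past an adjusted p of 0.05. Named genes are circled, Igf2 at 2.82 and Pstpip2 at -4.83, and the diagonal streaks at low CPM are genes with few or no counts in the IP.

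Short mRNAs were raised in the IP and long mRNAs depleted. When the 13116 protein-coding genes were put into 5 bins of equal size by coding length, the median log2 difference was 0.52 in the shortest bin (78 to 747 bases), then 0.15, -0.01 and -0.23, and -0.49 in the longest (2505 bases and more). Of 2624 genes in the shortest bin 885 were higher in the IP and 246 lower, and of 2623 in the longest 167 were higher and 854 lower. The order held in each IP library taken alone. Relative to the mean of the total libraries, the shortest bin had a median of 0.44 in IP library 1 and 0.48 in IP library 2, and the longest -0.43 and -0.55, while the 3 total libraries lay between -0.10 and 0.05 for the shortest bin and between -0.08 and 0.08 for the longest. In shares of all protein-coding counts, the shortest bin held 16.7%, 17.1% and 15.8% in total RNA and 27.1% and 27.5% in the IP, and the longest 29.6%, 30.6% and 30.7% against 18.6% and 18.3%. Spearman's rho between coding length and the log2 difference was -0.31 across these genes, which are not independent replicates and share the same 5 libraries.

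Transcripts rich in G and C were also raised. Over 5 equal bins of GC content of the transcript, from 33.4% to 72.8% GC, the median log2 difference went from -0.33 in the lowest to 0.26 in the highest bin (rho 0.20 over 13116 genes). GC content and coding length were nearly unrelated to each other (rho 0.02), and both gradients were seen within bins of the other. The median was 1.07 for genes in both the shortest and the GC-richest bin and -0.66 for genes in both the longest and the GC-poorest. The part of library construction in these gradients was not tested.

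**Figure D2:**
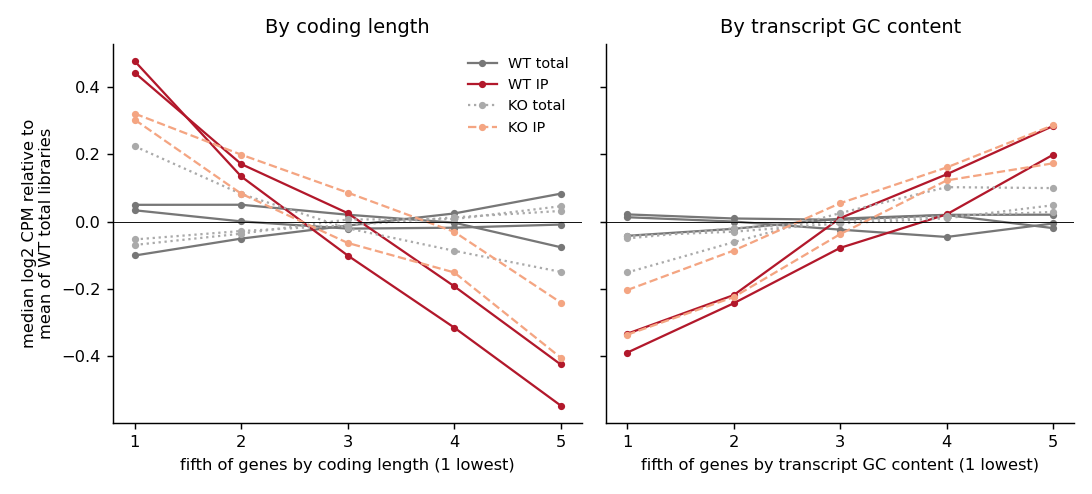
Median log2 CPM relative to the mean of the 3 WT total libraries, for 5 bins of protein-coding genes by coding length (left) and by GC content of the transcript (right), with 1 line per library. Both WT IP lines run from above 0.4 down to below -0.4 over the length bins, and the WT total lines stay between -0.10 and 0.08.

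**Figure D3:**
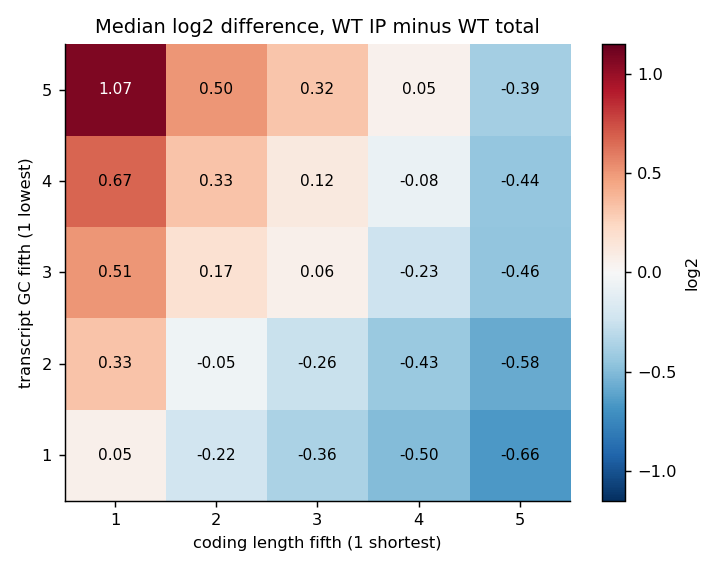
Median log2 difference between WT IP and WT total RNA in each of the 25 combinations of 5 coding length bins (horizontal) and 5 GC bins (vertical). Values fall from 1.07 at the upper left (short, GC-rich) to -0.66 at the lower right (long, GC-poor).

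Coding sequences of genes with large differences in either direction are shown here. The 3 short ones with large increases in the IP are given whole and 2 with large decreases by their first 150 bases, from GENCODE M21 on GRCm38, with the start codon, the stop codon of whole sequences and an internal TGA codon in capitals. Rpl39, a protein of the large ribosomal subunit, lies on chrX:37082701-37085127 (coding part with introns, minus strand) and codes in 156 bases. Tmsb10, which encodes an actin-binding thymosin, lies on chr6:72957618-72958012 (minus strand) and codes in 135 bases. Selenow, a muscle selenoprotein, lies on chr7:15919863-15922280 (minus strand), codes in 267 bases, and reads TGA as selenocysteine at codon 13. Kcnj11, a subunit of the potassium channel closed by ATP, has all of its 1173 coding bases in 1 exon, of which chr7:46099748-46099897 (minus strand) is shown. Its coding length falls in the middle bin (1158 to 1629 bases, median log2 difference -0.01), so it is not an example of a long mRNA. Vcl, which encodes the adhesion protein vinculin, codes in 3201 bases, of which chr14:20929521-20929670 (plus strand) is shown.
Rpl39: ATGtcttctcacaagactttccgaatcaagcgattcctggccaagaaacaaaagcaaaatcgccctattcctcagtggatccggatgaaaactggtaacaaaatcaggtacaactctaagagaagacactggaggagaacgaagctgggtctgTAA
Tmsb10: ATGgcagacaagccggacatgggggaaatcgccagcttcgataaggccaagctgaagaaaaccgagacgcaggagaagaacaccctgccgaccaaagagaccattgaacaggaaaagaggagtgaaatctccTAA
Selenow: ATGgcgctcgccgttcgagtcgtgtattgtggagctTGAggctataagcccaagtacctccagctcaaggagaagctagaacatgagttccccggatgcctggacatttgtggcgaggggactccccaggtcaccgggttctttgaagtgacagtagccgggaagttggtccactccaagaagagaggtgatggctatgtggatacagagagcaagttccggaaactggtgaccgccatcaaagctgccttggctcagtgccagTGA
Kcnj11, first 150 bases: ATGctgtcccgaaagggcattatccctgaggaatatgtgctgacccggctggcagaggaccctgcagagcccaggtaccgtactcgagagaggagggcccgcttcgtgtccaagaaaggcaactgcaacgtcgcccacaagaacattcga
Vcl, first 150 bases: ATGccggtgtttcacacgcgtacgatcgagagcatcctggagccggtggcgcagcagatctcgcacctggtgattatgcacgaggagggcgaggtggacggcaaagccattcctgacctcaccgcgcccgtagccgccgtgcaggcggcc
The GC content of these runs was 44.2% for Rpl39, 51.1% for Tmsb10, 55.1% for Selenow, 58.0% for Kcnj11 and 65.3% for Vcl. These are coding parts or their first 150 bases, whereas the GC gradient was over whole transcripts. The values therefore do not say whether these genes follow the gradient.

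Tmsb10 was at 4.22, 3.94 and 2.30 CPM in the WT total libraries and at 46.7 and 30.4 in the WT IP, a log2 difference of 3.46 ± 0.30 (SE; adjusted p = 5.59e-06, edgeR). Selenow was at 789, 652 and 601 CPM in total RNA and at 4941 and 4957 in the IP, and differed by 2.86 ± 0.26 (adjusted p = 8.18e-06, edgeR). For both genes each IP value lay above each total value, which the rule that chose them required. Kcnj11 was at 78.3, 83.2 and 69.2 CPM in total RNA and at 5.05 and 3.90 in the IP (12 and 10 counts), a log2 difference of -4.10 ± 0.33 (adjusted p = 4.97e-06, edgeR). Vcl was at 74.0, 83.6 and 93.6 CPM against 3.36 and 4.29 (-4.44 ± 0.41, adjusted p = 8.18e-06, edgeR). The IP values of Kcnj11 and Vcl lay below all total values, by the same rule. Vcl overlaps Ap3m1 on the opposite strand. The strand setting of the counting is not given, so reads of overlapping genes may not be told apart.

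Medians also differed by the number of exons. The 292 genes whose transcript has 1 exon had a median log2 difference of 0.29 and the 3338 with 2 to 5 exons 0.36, against -0.42 for the 3080 with 16 or more, of which 960 were lower in the IP. The length of the 3' UTR, where IMP proteins are known to bind, separated genes less than coding length did: the medians of its 5 bins were 0.00, 0.11, 0.07, -0.07 and -0.27 from the shortest to the longest, with a rho of -0.10 over 13007 genes. The tetramers CATA, CATC and CATT, which in RNA form match a motif reported for this family, were searched on the transcript strand only, in 3' UTRs of at least 100 bases, without regard to overlap with other motifs. They occurred in 12170 of 12470 such 3' UTRs (97.6%). Density of these tetramers went with lower values (rho -0.11), with medians of 0.14 in the lowest and -0.21 in the highest bin, and genes with a dense AU-rich pentamer ATTTA, present in 69.6% of the same 3' UTRs, also had lower medians (-0.33 in the highest bin, rho -0.18). These are counts of letters and say nothing of where the protein was bound.

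Among gene types other than protein-coding, processed pseudogenes, reverse-transcribed copies of mRNAs, had a median of -0.86, with 27 of 292 tested higher and 40 lower. The 241 lincRNAs tested had a median of 0.15 (41 higher, 17.0%, and 30 lower, 12.4%). The 282 antisense RNAs had -0.20 (39 higher, 13.8%, and 54 lower, 19.1%). Of all genes tested 17.6% were higher and 19.4% lower. Antisense genes share positions with their partners, so without strand their reads cannot be told apart. The 472 genes of the X chromosome had a median of -0.27 (53 higher, 11.2%, and 98 lower, 20.8%), against -0.04 for 13852 autosomal genes (17.8% higher and 19.3% lower). The 37 mitochondrially encoded genes in the files were at 0 counts in every library and are not analysed here.

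Cytosolic ribosomal protein mRNAs, which share a pyrimidine-rich start and are among the most actively translated mRNAs of a cell, were the functional list with the most genes raised. Of 79 tested, 56 rose, 3 fell and 20 did not pass the test, and the median log2 difference was 1.53. Against the median of genes of their own coding length bin the list still stood 1.10 higher. Summed over the list, the level was 5039, 5181 and 3318 CPM in WT total RNA and 14520 and 13392 CPM in the WT IP, without overlap. Rpl39 was at 10.3, 14.4 and 8.37 CPM in total RNA and 95.1 and 81.0 in the IP (3.00 ± 0.26, adjusted p = 6.61e-06, edgeR), and Rps18, of the small subunit, at 17.6, 19.8 and 17.3 against 125 and 97.8 (2.61 ± 0.22, adjusted p = 5.59e-06, edgeR). The 3 that fell were Rpl10, Rps27a and Rpl7a, named here after their values were seen, and with replicate numbers as a block 1 gene of the list fell. Total library 3 has no IP library of its number, so it adds nothing to the IP difference in the block fit. Here and below that fit is therefore not a separate check beside the fit without total library 3. Rpl3l, the striated muscle copy of Rpl3, was at 610, 512 and 563 CPM in total RNA and 673 and 712 in the IP and did not pass the test (0.30 ± 0.20, adjusted p = 0.257, edgeR). Ribosomal protein genes have many processed copies in the genome, so the reads counted are only those that mapped to 1 place, and small nucleolar RNAs lie inside several, including Rpl39.

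Of 62 initiation and elongation factors 16 rose (25.8%, beside 17.6% of all genes tested) and 12 fell (19.4%, the same share as of all genes tested; median 0.11, and -0.09 without total library 3). Eif1 was at 115, 90.0 and 86.9 CPM in total RNA and at 599.7 and 565 in the IP. The helicase pair Eif4a1 and Eif4a2, near copies of each other, went opposite ways, with 1.41 ± 0.19 for Eif4a1 (adjusted p = 8.5e-05, edgeR) and -2.78 ± 0.26 for Eif4a2 (adjusted p = 8.44e-06, edgeR). Eif3a, the large scaffold subunit of its factor, fell by 2.54. The coding part had a median of 816 bases in the 16 that rose and 1791 in the 12 that fell. Aminoacyl tRNA synthetases, which charge tRNAs with amino acids, fell in 10 of 20 and rose in 2 (median -0.62), among them Eprs (-1.52) and Qars (-1.59). Mitochondrial ribosomal proteins had 16 higher (21.3%) and 10 lower (13.3%) of 75, beside 17.6% and 19.4% of all genes tested (median 0.15, and 0.02 without IP library 2). Selenoproteins, which need a special decoding element in the 3' UTR, had 8 higher and 5 lower of 20 (median 0.68), from Selenow at 2.86 to Sephs2 at -2.78, and their median was 0.16 once coding length bins were subtracted. The selenoprotein median was 0.29 without total library 3 and 0.43 with replicate numbers as a block.

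Genes of the TCA cycle and of fatty acid uptake and oxidation were mostly depleted. TCA cycle and pyruvate dehydrogenase genes fell in 14 of 16 and rose in none (median -1.21, and -1.23 against their own length bins). Their summed level was 12574, 12357 and 11419 CPM in WT total RNA and 4922 and 6455 in the IP. Pdha1, the catalytic subunit of pyruvate dehydrogenase, was at 892, 916 and 896 CPM against 156 and 213 (-2.28 ± 0.25, adjusted p = 2.14e-05, edgeR). Idh3b, of isocitrate dehydrogenase, fell by 1.97, fumarase Fh1 by 1.84 and Dld by 1.52. In all 4 genes the IP values lay below the total values, which follows largely from their choice by p. Fatty acid uptake and oxidation genes fell in 14 of 24 and 1 rose, Lpl (median -0.66). Acadvl, the very long chain acyl-CoA dehydrogenase, was at 379, 295 and 434 CPM in total RNA and 21.0 and 22.6 in the IP (-4.08 ± 0.43, adjusted p = 1.86e-05, edgeR), and Cpt1b, which brings fatty acids into mitochondria, was at 14.0, 13.5 and 19.4 CPM against 1.68 and 1.17 (7 IP counts in all, total over IP 11.1, counting interval 5.35 to 27.7). Etfdh fell by 2.28 and Acadm by 2.05.

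Subunits of the respiratory chain split by size. The medians of these lists were near 0 and moved with single libraries. Complex I had 11 higher and 6 lower of 36 (median 0.41), complexes II to IV 6 and 6 of 28 (median 0.30) and ATP synthase 2 and 4 of 16 (median 0.09). Without IP library 2 the 3 medians were 0.22, 0.04 and -0.19, and without total library 3 they were 0.25, 0.19 and -0.02. With replicate numbers as a block complexes II to IV had 11 higher and 9 lower. Complex I subunits that rose had a median coding length of 390 bases and those that fell 1263, and the rho between coding length and log2 difference within the 3 lists was -0.44, -0.56 and -0.57. The small subunit Atp5e was at 435, 613 and 337 CPM in total RNA and 1716 and 1877 in the IP (1.96 ± 0.34), while the large catalytic subunit Atp5b was at 4814, 4504 and 3929 against 1761 and 1879 (-1.28 ± 0.23). Ndufs1, the largest complex I subunit, fell by 2.31, Uqcrc2 of complex III by 2.22 and Sdha of complex II by 1.59, while Ndufb2 was higher by 1.56 and lost its call without IP library 2 (adjusted p = 0.0544, edgeR). Atp5b overlaps Snord59a and Mir677, and Ndufs1 overlaps Eef1b2.

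Glycolysis and glycogen genes had 1 higher (2 with replicate numbers as a block) and 5 lower of 19 (median -0.18, from -0.35 without IP library 2 to -0.06 without total library 1). Slc2a4, the insulin-responsive glucose transporter, was at 638, 586 and 519 CPM in total RNA and 863 and 926 in the IP (0.62 ± 0.21, adjusted p = 0.029, edgeR), and its call was lost in 6 alternatives, among them each fit without an IP library (adjusted p = 0.0838 without library 1 and 0.2 without library 2, edgeR). Phkg1, of glycogen phosphorylase kinase, fell by 1.30. Gapdh was at 370, 379 and 203 CPM in total RNA and 17.7 and 24.2 in the IP (-3.92 ± 0.46, adjusted p = 3.36e-05, edgeR). It has many processed copies, so these are the reads that mapped to 1 place only.

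mRNAs of the contractile apparatus made up much of both kinds of library but a smaller share of the IP. Thin and thick filament genes took 20.3%, 21.8% and 15.4% of the gene counts in total RNA and 12.6% and 14.2% in the IP. Of 22 tested, 7 fell, 1 rose (Tpm3) and 14 did not pass the test, with a median of -0.72. That median was -1.58 without IP library 2, -0.28 without IP library 1, and -0.42 both without total library 3 and with replicate numbers as a block. The myosin heavy chains of fast fibres were among those that fell. Myh4, of type 2B fibres, was at 58615, 59346 and 33249 CPM in total RNA and 13577 and 17064 in the IP (-1.72 ± 0.36, adjusted p = 0.00198, edgeR), and Myh2, of type 2A fibres, at 855, 1234 and 1003 against 117 and 76.0 (-3.42 ± 0.43, adjusted p = 5.45e-05, edgeR). Myh1, of type 2X fibres, differed by -3.16 ± 0.44. The 3 genes are near copies of each other, and reads that map to several places were not counted. With replicate numbers as a block 6 filament genes rose and 10 fell. Skeletal actin Acta1 was at 40898, 49096 and 17645 CPM in total RNA and 31266 and 38863 in the IP (-0.03 ± 0.39, adjusted p = 0.957, edgeR; 0.075 with library size alone as the scale). Tropomyosin Tpm2 was at 9026, 10294 and 5866 against 13076 and 14580 (0.72 ± 0.29, adjusted p = 0.0635, edgeR) and passed in 8 of the alternatives, for example with replicate numbers as a block (0.52, adjusted p = 0.0219).

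Giant and Z-disc scaffold proteins fell in 15 of 28 and rose in 3 (median -0.81). Neb, the giant ruler of thin filaments, was at 5821, 6101 and 7211 CPM in total RNA and 1022 and 1112 in the IP (-2.58 ± 0.27, adjusted p = 1.88e-05, edgeR), and Myom2, of the M band, fell by 1.95. Ttn, Dmd, Flnc and Syne1 were also lower. The 3 higher genes were Tcap, Des and Ank1. Tcap, the small cap of titin at the Z-disc, was at 3989, 2983 and 2819 CPM in total RNA and 11412 and 10599 in the IP (1.75 ± 0.27, adjusted p = 0.00022, edgeR), and its coding part has 504 bases. Coding parts had a median of 1410 bases in the 3 that rose, the longest having 5547, against a median of 11037 in the 15 that fell. In shares of all gene counts, Tcap went from 0.38%, 0.28% and 0.33% in total RNA to 1.26% and 1.07% in the IP, while Atp2a1, the calcium pump of fast fibres, went from 3.06%, 2.86% and 2.19% to 0.89% and 1.05%.

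Calcium handling genes had 4 higher and 5 lower of 18 (median 0.10, and -0.31 without IP library 2), which is 22.2% and 27.8% beside 17.6% and 19.4% of all genes tested. The pore of the voltage sensor Cacna1s was at 934, 995 and 603 CPM in total RNA and 83.3 and 92.7 in the IP (-3.26 ± 0.41, adjusted p = 6.15e-05, edgeR), whereas its small gamma subunit Cacng1 was higher by 1.73 and the junctional protein Jsrp1 by 2.05. Ion channels and the sodium pump had 3 higher and 8 lower of 14 (median -0.87), with Kcnj11 at -4.10, Atp1b1 at -3.14, the sodium channel Scn4a at -2.16 and the chloride channel Clcn1 at -1.87. Of the 2 beta subunits of the sodium pump among them, Atp1b2 rose while Atp1b1 fell.

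Chromatin regulators of large size fell in 17 of 33 and 1 rose (median -0.71, and -0.21 against their own length bin). Kmt2c fell by 2.23, Setd5 by 1.91 and Kmt2d by 1.69. Ubiquitin ligases and atrophy genes fell in 11 of 18 and 1 rose, Fbxo40 (median -0.93). Herc1 and Herc2, giant ligases, fell by 1.82 and 1.64, and Trim55, of the MuRF family, by 1.44. Myogenic regulators fell in 7 of 16 and 1 rose, Cdkn1a (median -0.83), and 3 rose with replicate numbers as a block. Myf6 was at 84.4, 74.9 and 78.2 CPM in total RNA and 10.1 and 19.9 in the IP (-2.39 ± 0.27), and Eya4 differed by -4.46 ± 0.43 on 8 IP counts. mTOR and Akt path genes fell in 10 of 18 and rose in 3 (median -0.63), the latter being Pik3ca, Eif4ebp1 and Foxo1. Of 37 hnRNP and related RNA-binding protein genes 18 fell and 3 rose (median -0.73), with Hnrnpa2b1 down from 623, 596 and 782 CPM to 155 in both IP libraries. SR splicing factors and their kinases fell in 7 of 26 and rose in 3 (median -0.44), beside 19.4% lower and 17.6% higher of all genes tested. The SR list summed to 5990 CPM in total library 3 and to 2624 and 2680 in total libraries 1 and 2, and its median was -0.17 without library 3 and -0.18 with replicate numbers as a block, where 5 rose and 6 fell. Its member Rsrp1 was at 610, 546 and 2034 CPM in total RNA and 380 and 291 in the IP, and the difference of -1.66 was -0.78 without that library and lost its call without IP library 1 or 2 (adjusted p = 0.061 and 0.11, edgeR).

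Of 14 lncRNAs kept in the nucleus none rose and 3 fell, Malat1, Tug1 and Miat, beside 17.6% higher and 19.4% lower of all genes tested. Their median of -0.38 was 0.05 without total library 3, which had the high Neat1 level, and 0.04 with replicate numbers as a block, where 2 rose and 4 fell. Neither of those fits takes anything from that library for the IP difference. Miat rested on 10 and 1 IP counts (-3.03, and -5.53 without IP library 1). Malat1 was at 659, 861 and 814 CPM in total RNA and 96.3 and 115 in the IP (-2.88 ± 0.33, adjusted p = 3.03e-05, edgeR). Neat1, at 1212, 1525 and 4579 CPM against 1300 and 1397, did not pass the test (-0.86 ± 0.47, adjusted p = 0.168, edgeR), and the IP values overlapped the total values. Spliced host genes of small nucleolar RNAs, which are exported and decayed on ribosomes, had 4 higher and 1 lower of 12 (median 0.72, and 1.18 with replicate numbers as a block). Gas5 was at 37.0, 41.4 and 68.5 CPM in total RNA and 162 and 164 in the IP (1.74 ± 0.23) and Zfas1 was higher by 1.99, while Snhg14, the long host transcript of the Prader-Willi region, fell by 2.68. Gas5, Zfas1 and Snhg14 overlap other genes.

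**Figure D4:**
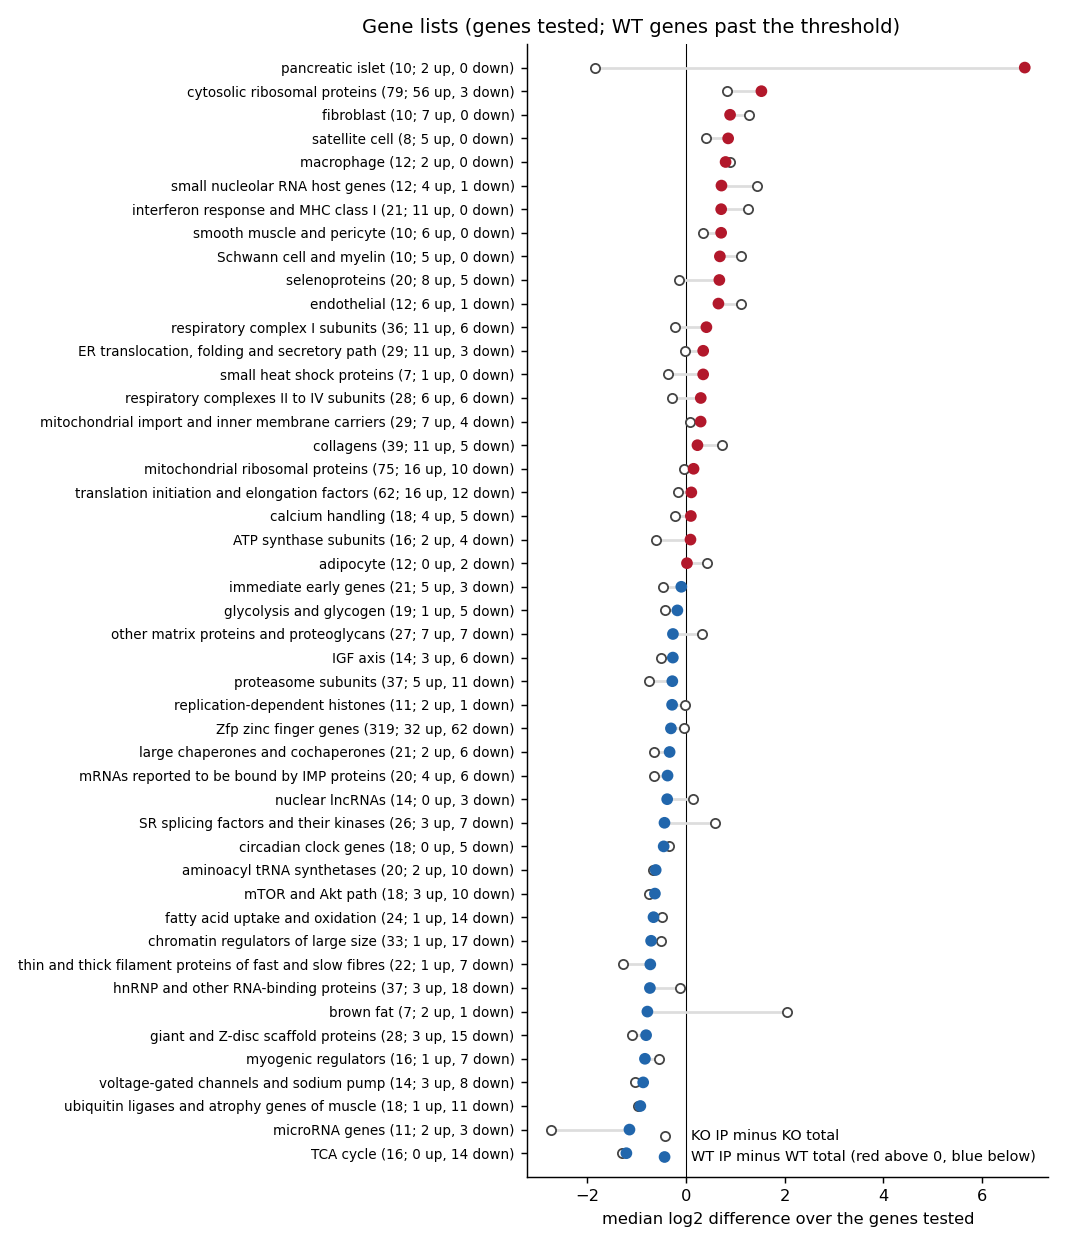
Median log2 difference of each gene list with 7 or more genes tested, filled for WT IP minus WT total RNA (red above 0, blue below) and open for KO IP minus KO total RNA. The names give the genes tested and how many were higher (up) and lower (down) in the WT IP, from 14 of 16 TCA cycle genes down at -1.21 to 56 of 79 ribosomal proteins up at 1.53, and the islet list lies at 6.87.

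Fibroblast genes rose in 7 of 10 with none lower (median 0.89), endothelial genes in 6 of 12 with 1 lower (0.66), smooth muscle and pericyte genes in 6 of 10 with none lower (0.71), Schwann cell genes in 5 of 10 with none lower (0.69, and 0.22 without IP library 2) and satellite cell genes in 5 of 8 with none lower (0.85). With replicate numbers as a block 7 fibroblast genes rose and 3 fell. In a tissue sample, more cells of a type and more RNA per cell cannot be told apart, and whether the IP and total RNA came from the same pieces of muscle is not given. The summed level of the 10 fibroblast genes was 5483, 4714 and 3324 CPM in total RNA and 7250 and 5590 in the IP. Cd34, a marker of endothelial and stromal progenitors, was at 157, 150 and 121 CPM against 371 and 401 (1.44 ± 0.21, adjusted p = 0.000202, edgeR), and Cnn1, calponin of smooth muscle, at 1.29, 2.55 and 0.977 against 14.7 and 11.3 (3.01 ± 0.49, adjusted p = 0.000357, edgeR). Chodl, a satellite cell gene, was higher by 2.39 and the myelin gene Pmp22 by 1.84.

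Macrophage genes had 2 higher of 12 (median 0.80), and these rested on 1 library. Their summed level was 915 CPM in IP library 1 and 339 in IP library 2, against 511, 354 and 219 in total RNA, and C1qc and Tyrobp, the 2 that passed, did not pass without IP library 1 (0.76 and 0.68 on the log2 scale). The list's median was -0.20 without that library, and with replicate numbers as a block C1qb passed as well (0.53, adjusted p = 0.0469, edgeR). The islet list had 2 higher of 10, Ins1 and Ins2. Both lost their calls without IP library 2 (adjusted p = 0.26 and 0.206, edgeR), without total library 3 and with limma-voom, while 9 of the 10 passed with replicate numbers as a block, among them Iapp (9.39) and Chga. Red cell genes had 1 higher of 5, Hbb-bs, which was at 99.4 CPM in total library 2 and 22.6 and 15.8 in the others and lost its call in 5 alternatives (adjusted p = 0.398 without IP library 2, edgeR), with a difference of 3.07 without total library 2 against 1.81. Hba-a1 (1.62, adjusted p = 0.0698, edgeR) and Hba-a2 (1.32, adjusted p = 0.107, edgeR) passed as higher in 6 and 4 alternatives, and 3 of the 5 genes did with replicate numbers as a block. Adipocyte genes had none higher and 2 lower of 12, Plin4 and Acsl1, and with replicate numbers as a block 1 was higher. The counts of the macrophage, islet, red cell and adipocyte lists stand beside 17.6% higher and 19.4% lower of all genes tested.

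Collagens, whose mRNAs are long, rose in 11 of 39 and fell in 5 (median 0.23), which is 0.73 above genes of their own length bins. The fibrillar Col1a1 and Col1a2, all of Col6a1, Col6a2 and Col6a3, and the basement membrane collagens Col15a1 and Col18a1 were among those that rose, Col1a2 with a call that was lost without IP library 1 (adjusted p = 0.14, edgeR). Col15a1 was at 63.3, 112 and 75.9 CPM in total RNA and 318 and 379 in the IP (2.06 ± 0.34, adjusted p = 0.000431, edgeR), and Col6a1 at 205, 208 and 135 against 781 and 584 (1.90 ± 0.25, adjusted p = 7.86e-05, edgeR). The coding parts of the 11 that rose had a median of 4119 bases. The median of the list was -0.04 without IP library 2, 0.47 without total library 3 and 0.53 with replicate numbers as a block. Proteins of the endoplasmic reticulum and secretory path rose in 11 of 29 and fell in 3 (median 0.35, and 0.17 without total library 3), among those that rose Sec61b of the translocation channel at 1.94 and the folding enzyme P4hb at 1.37. Other matrix genes had 7 higher and 7 lower of 27, or 9 and 11 with replicate numbers as a block, from the proteoglycan Bgn at 2.44 to Timp3 at -2.45. Fibroblast markers, which hold Col1a1, Col1a2 and Col3a1, moved with the collagens, and their part in the collagen values was not tested.

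Interferon response and MHC class I genes rose in 11 of 21 with none lower (median 0.71, and 0.46 without IP library 1). Irf7, the main interferon-induced transcription factor, was at 25.5, 15.4 and 19.2 CPM in total RNA and 118 and 51.8 in the IP (2.08 ± 0.34, adjusted p = 0.000336, edgeR), and 1.35 without IP library 1. B2m, the light chain of MHC class I, was at 151, 132 and 101 against 541 and 332 (1.77 ± 0.27, adjusted p = 0.000212, edgeR). The list's summed level was 839, 899 and 749 CPM in total RNA and 1933 and 1349 in the IP, and IP library 1, the higher one, was also the one with more macrophage RNA. The part of macrophages in these values was not tested.

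The growth factor genes of the IGF axis were raised, and receptors and adaptors of the axis were depleted. Igf2, on chr7:142650766-142666816 (minus strand), encodes the growth factor IGF2 and was at 23.1, 88.5 and 28.9 CPM in WT total RNA and 278 and 385 CPM in the WT IP. Both IP values lay above all total values, and the log2 difference was 2.82 ± 0.47 (adjusted p = 0.000401, edgeR), a fold of 7.08. Igf1, on chromosome 10, was at 32.9, 38.0 and 21.6 CPM against 151 and 94.7 (1.99 ± 0.30, adjusted p = 0.000217, edgeR). Among 14 genes of the axis tested, 3 were higher, Igf2, Igf1 and the binding protein Igfbp4, and 6 were lower, Igf1r, Igf2r, Igfbp5, Grb14, Irs1 and Irs2. The median of -0.27 was -0.58 without IP library 2 and -0.09 without IP library 1, and with replicate numbers as a block 6 rose and 6 fell. Irs1, the insulin receptor substrate, was at 64.8, 58.3 and 33.3 CPM in total RNA and 4.21 and 5.45 in the IP (-3.42 ± 0.45, adjusted p = 7.73e-05, edgeR), and Igf2r, the scavenger receptor of IGF2, at 149, 176 and 153 against 48.4 and 57.3 (-1.59 ± 0.24, adjusted p = 0.000212, edgeR). Igf1r rested on 8 and 3 IP counts (-1.47 ± 0.47, adjusted p = 0.0233, edgeR) and lost its call in 6 alternatives, with -0.97 without IP library 2 (adjusted p = 0.171, edgeR) and -2.42 without IP library 1. Within this list coding length and the log2 difference had a rho of -0.82 over 14 genes, with a median coding length of 543 bases in the 3 higher and 3831 in the 6 lower. Igf2 overlaps Mir483 and, on the opposite strand, Igf2os.

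H19, an imprinted noncoding RNA next to Igf2, was at 2546, 4541 and 1753 CPM in WT total RNA and 5878 and 7825 in the IP (1.22 ± 0.41, adjusted p = 0.0319, edgeR). Its IP values lay above all total values, and its call was lost without either IP library (adjusted p = 0.0653 without library 1 and 0.23 without library 2, edgeR) and without total library 1 or 3. A list of 20 mRNAs reported elsewhere to be bound by IMP proteins did not move one way, with a median of -0.37 (-0.63 without IP library 2). Of these 20, 4 were higher and 6 lower, beside 17.6% and 19.4% of all genes tested. Besides Igf2 and H19 the higher ones were beta-actin Actb, a long-known target of this family in other cells, and Cd44. Actb was at 253, 327 and 119 CPM in total RNA and 1584 and 962 in the IP (2.45 ± 0.36, adjusted p = 0.000196, edgeR). The lower ones were Ndufs3, Sirt1, Ppara, Atp5b, Lamb2 and Ccnd1. Ppara, the nuclear receptor that drives fatty acid oxidation, was at 8.02, 5.63 and 8.09 CPM in total RNA and had 1 count in each IP library (total over IP 18, counting interval 4.95 to 149.6). Igf2bp2 mRNA did not pass the test (1.18 ± 0.57, adjusted p = 0.117, edgeR), and without IP library 1 its difference was -0.91. Igf2bp1, Igf2bp3 and Hmga2 had at most 1 count in either IP library and were not tested.

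**Figure D5:**
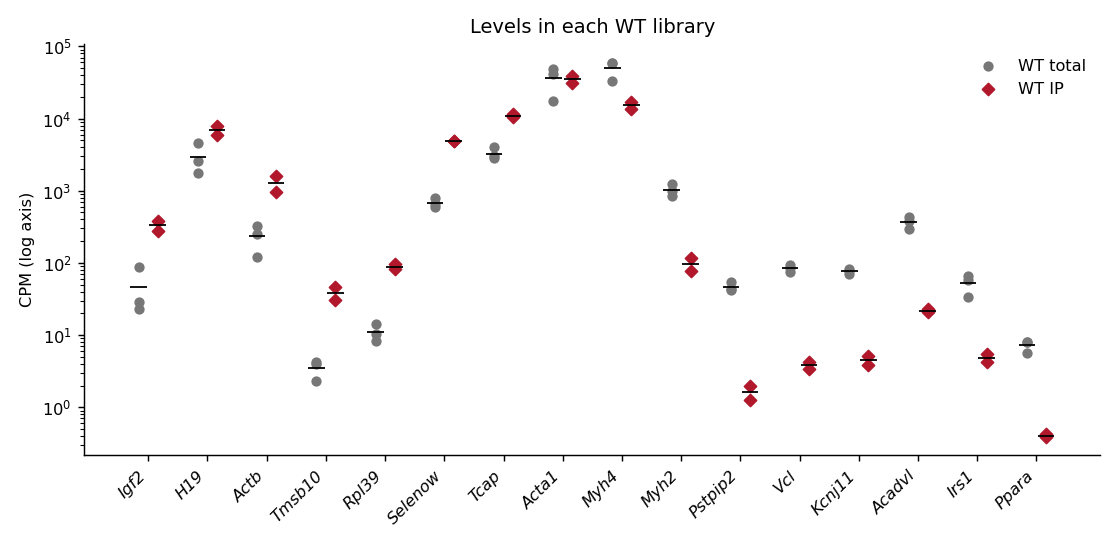
CPM on a log axis in the 3 WT total libraries (grey circles) and 2 WT IP libraries (red diamonds) for 16 genes, with the mean of each group as a bar. Igf2 through Tcap lie higher in both IP libraries than in all total libraries, Acta1 overlaps, and Myh4 through Ppara lie lower in both.

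The largest increases had short coding parts, while the largest decreases were of mixed length. Among called genes with no overlap between the groups and a mean of at least 20 CPM in the higher group, 1667 were higher and 1658 lower. The 12 largest on the higher side (log2 2.86 to 8.03) had coding parts of 135 to 885 bases, and besides Ins1 and Ins2 they were Tmsb10, the mast cell tryptase Tpsb2, Laptm5, Spp1, Rtl8b, Rpl39, Cdk2ap1, Vkorc1, Selenow and R3hdm4. Spp1, osteopontin, was at 52.2 CPM in IP library 1 and 6.62 in IP library 2 and lost its call without the former (1.00, adjusted p = 0.327, edgeR), and Laptm5, of blood cells, was at 2.05 without it. The 12 largest on the lower side had coding parts of 738 to 4743 bases (median 1911), so they spread from the shortest length bin to the longest. They included Pstpip2, the nuclear import receptor Ipo7, Snw1, Eya4, Vcl, Dnmbp, Anxa11, Kcnj11, Acadvl, the Z-disc protein Myoz3 and the triglyceride synthesis enzyme Gpam. Pstpip2 was at 43.5, 42.1 and 53.7 CPM in total RNA and had 3 and 5 counts in the IP (total over IP 28.8, counting interval 14.6 to 66.8). Counting intervals here cover counting error only. Larp4b, with 2226 coding bases, is not among the 12 largest but was also higher, at 113, 110 and 122 CPM against 627 and 549 (2.35 ± 0.18, adjusted p = 4.97e-06, edgeR). Of the 2623 genes in its length bin (1629 to 2505 bases) 291 were higher in the IP and 618 lower.

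Most of these differences were also present between IP and total RNA labelled KO. There 2551 genes (17.7%) were higher in the IP and 2700 (18.8%) lower. With library size alone as the scale these became 4267 and 1439, because that scale moves the median of all genes in the KO comparison from 0.03 to 0.47, and the WT median from -0.05 to 0.01. Of the genes higher in the WT IP, 1544 (60.9%) were also called higher in the KO IP and 2 were called lower, and of those lower in the WT IP, 1924 (68.9%) were called lower and 3 higher. The 2 comparisons share no library. Over 5765 genes at 20 CPM or more in WT total RNA, Pearson's r between the log2 differences was 0.83 and Spearman's rho 0.81, a description over genes of the same 10 libraries.

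The test of the difference itself, WT IP over total against KO IP over total, passed for 1 gene (0.00694%), Prps1l3, a retrotransposed copy of a phosphoribosyl pyrophosphate synthetase gene that lies within Mipol1. It was at 11.5, 11.9 and 12.7 CPM in WT total RNA, 7.15 and 7.01 in the WT IP, and at 0 and 1 count in the KO IP. DESeq2 called 17 genes, limma-voom 0, the fit with replicate numbers as a block 147, and 1703 genes had an unadjusted p under 0.05. Igf2 was at 74.7, 148 and 88.7 CPM in total RNA labelled KO and 264 and 415 in the IP (1.72 ± 0.46), and the difference between the genotypes did not pass the test. H19 was at 0.14 in KO against 1.22 in WT, Selenow at 1.76 against 2.86, Actb at 2.31 against 2.45 and Tmsb10 at 3.34 against 3.46, none with a called difference. The short end of the length gradient was 0.32 in KO against 0.52, the long end -0.30 against -0.49, ribosomal proteins 0.84 against 1.53 and TCA cycle genes -1.29 against -1.21. What the antibody recovered through IMP2 and what it recovered without it cannot be told apart for these classes from the WT comparison alone.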

How the data were processed

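The deposited files hold whole-number counts per Ensembl gene, made by the authors with STAR and HTSeq on mm10/GRCm38, per the submitters' processing notes, from libraries prepared with an Illumina TruSeq kit per the labels. Neither versions, strand setting nor annotation release are given in the sources used here. Lines that name no gene (no feature 8.54% to 11.2%, ambiguous 3.30% to 6.03% and reads at several places) stayed out of library sizes and tests. Genes were annotated with GENCODE M21 (GRCm38; 42548 of 43629 IDs matched), taking 1 transcript per gene. Differences came from edgeR 4.0.16 (R 4.3.3; TMM, filterByExpr, quasi-likelihood F test, all 10 libraries in 1 fit, no covariate), with the standard error from the F statistic and Benjamini-Hochberg adjustment over 14399 genes. CPM are TMM-scaled. Alternatives used DESeq2 1.42.0 and limma 3.58.1 among others. On data simulated for the WT comparison, with 100 genes changed at each fold among 14399, 23% of 2-fold and 84% of 4-fold changes were recovered. Of 116 calls 9 were unchanged genes. The data themselves gave 5325 calls, so these rates need not hold for the reported test.

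The members, the 54 gene lists and the tests were chosen with earlier results of these data known. Named genes are fixed growth genes, up to 4 members with the smallest p per list, the 12 largest without overlap on each side, the 10 most counted per group and the 5 smallest p per side; Prps1l3, Gapdh, Neat1, Rsrp1, Ucp1, Ndufa4, Rpl3l, Rpl41 and list members named only by direction were added after values were seen. Deviations of same-numbered IP and total libraries correlated (0.10 to 0.16 in all 4 pairs over 14399 genes). By the rule of 0.1 in every pair the replicate numbers were taken to pair them in an alternative fit. With 2 IP libraries per genotype their deviations are mirror images, so the pairs within a genotype are not separate evidence. The pairing is not established, and the reported fit does not use it. A fit with the number as a block is given beside list counts that it moves by more than 1.5 times. Total library 3 of each genotype has no IP library of its number and adds nothing to the IP difference in that fit. Some genes that these rules name are not reported here.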

Additional observations from a re-analysis of the deposited data

Results flagged for a closer look

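Prps1l3 was the gene with a called difference between the genotypes: IP over total RNA was 5.28 higher on the log2 scale in WT than in KO (adjusted p = 0.0415, edgeR), with 17 and 18 counts in the WT IP libraries and 0 and 1 in the KO IP libraries. It is a near copy of Prps1, so its reads are uncertain, and the WT difference from total RNA (-0.76) lost its call in 13 of the alternatives.

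In 4 gene lists both WT IP libraries lay on one side of the mean of their total libraries and both KO IP libraries on the other, and the difference between the genotypes was not tested for a list. SR splicing factors had a median of -0.44 in WT and 0.59 in KO (-0.88 for the difference over 26 genes). Small heat shock proteins had 0.35 and -0.36 (0.79 over 7 genes). Other matrix proteins had -0.27 and 0.32 (-0.26 over 27 genes), and translation factors 0.11 and -0.16 (0.28 over 62 genes). WT total library 3 and both KO IP libraries hold more of the nuclear RNA Neat1 (4579, 3833 and 3306 CPM) than the other libraries do, and the part of this in the SR list was not tested.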

How the results depend on the processing

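Of the list medians, 687 list and setting pairs lay within 1 SD of the reported value, the SD being that between libraries, and 77 did not. The test against a fold of 2 left 504 higher and 761 lower genes in WT and 486 and 776 in KO. Leaving out 1 WT library gave 1666 to 2347 higher and 2099 to 2539 lower genes, fewest without IP library 2. With library size alone, KO had 4267 higher and 1439 lower genes. The genotype difference was called for 0 genes with library size alone, with at least 10 CPM in 2 libraries, with limma-voom, against a fold of 2 and with total RNA thinned to IP depth, for 0 or 1 with a WT library left out, 17 with DESeq2, 147 with the replicate block and 263 with no filter on low counts.

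With at least 10 CPM in 2 libraries ribosomal proteins had a median of 1.96 and collagens 0.44. The replicate block gave 0.53 for collagens, -0.52 for chromatin regulators and 0.43 for selenoproteins, and thinned total RNA 0.62 for the shortest coding length bin. Over fits that leave out 1 WT library the medians ran from -1.47 to -1.09 for the TCA cycle, -0.94 to -0.59 for fatty acid oxidation, -1.58 to -0.28 for filaments, -1.02 to -0.66 for giant proteins, -0.038 to 0.47 for collagens, -0.87 to -0.52 for chromatin regulators, 0.29 to 0.93 for selenoproteins, 0.46 to 0.74 for interferon genes, 0.36 to 0.57 for the shortest bin, -0.63 to -0.41 for the longest bin and 1.38 to 1.60 for ribosomal proteins. The causes were not tested.

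Of the named genes, 3374 gene and setting pairs kept their direction and call, 84 lost and 71 gained the call, and 15 changed sign, none of them with a call in the reported fit. Acta1 turned to 0.075 with library size alone, 0.085 with limma-voom and 0.011 with thinned total RNA, and ran from -0.36 to 0.26 with a library left out. With a library left out C1qb ran from -0.040 to 1.53, Fcgr3 from -0.52 to 1.90, Igf2bp2 from -0.91 to 1.93, Krt10 from -0.72 to 1.30, Xist from -2.57 to 5.56, Mylpf from -0.53 to 0.049, Ndufa4 from -0.47 to 0.072 and Ucp1 from -3.50 to 4.29, and Ucp1 was 2.22 with limma-voom. The low ends of C1qb, Fcgr3 and Igf2bp2 came without IP library 1, those of Krt10 and Xist without IP library 2, and the high ends of Mylpf and Ucp1 without total library 2. The replicate block gained 14 calls of named genes, lower for Aldoa (-0.88), Mylpf (-0.48), Tnnt3 (-0.58), Tpm1 (-1.04) and Rian (-0.55) and higher for Tpm2, C1qb, Chga, Cox8b, Hba-a1, Hba-a2, Hspb6, Iapp and Retn (0.52 to 9.39), lost Prps1l3 and changed no other call of a named gene. In the IP libraries 3 counts are 1.39 and 1.18 CPM before TMM scaling, so levels below that rest on fewer than 3 reads.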
